A study of Mus musculus with 2 samples.

Results

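The Mn1, Pitpnb, Miat and Cryba4 locus is a stretch of mouse chromosome 5 in which sites bound by the co-activator p300 lay unusually close together in the developing neocortex. Its members were the peaks of the deposited p300 list whose midpoint fell between 111600000 and 112700000 on chromosome 5 of the mm9 assembly, a window of 1.1 Mb, and the window was chosen by its density of peaks in that same list. It held 43 of the 6629 peaks, numbered 4901 to 4943 in the list. The number, density and spacing of these peaks are therefore a description of the choice and support nothing by themselves.

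The study profiled the dorsal cerebral wall of Swiss Webster embryos at embryonic day 14.5, a tissue that holds cortical progenitors and young neurons together, by chromatin immunoprecipitation with an antibody against p300 followed by sequencing. There was 1 p300 library and 1 input library, from untreated tissue without a genetic alteration in the labels, and no replicate. The list gives each peak by its start and end only, so the reads behind a single peak and its height are unknown, and no value below has a replicate error. Across a list of genes typical of the tissue, 9 of 10 dorsal pallium genes (such as Emx1 with 6 peaks and Neurod2 with 10) had a p300 peak within 100 kb of the start site and Eomes had 0, against 1 of 5 ventral telencephalon genes (Gsx2) and 2 of 7 genes of other tissues (Myod1 and Pecam1); 24.8% of all 18679 named protein-coding genes had one.

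The histone acetyltransferase p300 is brought to DNA by transcription factors and marks active enhancers, the distal elements from which a gene is switched on in a given tissue. Mn1 encodes a nuclear co-regulator that can work with p300 and with retinoid receptors, and it is needed for bones of the skull and palate. Pitpnb encodes a protein that carries phosphatidylinositol between membranes, with a role at the Golgi. Miat, also called Gomafu, is a long noncoding RNA that stays in the nucleus of neurons and meets splicing factors there. Cryba4 encodes a structural protein of the eye lens.

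The sequence in the middle of the peak nearest to the start site of each of the 4 genes is shown first, since these are the p300 peaks closest to their promoters. Each is 160 bp around the midpoint on the plus strand of mm9, in lower case, with capitals on any match to the motifs searched (defined further on).
Mn1, peak 4908, chr5:111843256-111843415: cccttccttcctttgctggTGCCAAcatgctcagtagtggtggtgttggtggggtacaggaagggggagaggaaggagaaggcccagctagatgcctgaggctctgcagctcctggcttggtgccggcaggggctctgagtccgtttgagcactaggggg
Pitpnb, peak 4907, chr5:111699380-111699539: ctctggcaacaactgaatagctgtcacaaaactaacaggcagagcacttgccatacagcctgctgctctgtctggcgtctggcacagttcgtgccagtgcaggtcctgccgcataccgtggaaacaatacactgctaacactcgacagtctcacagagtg
Miat, peak 4940, chr5:112654622-112654781: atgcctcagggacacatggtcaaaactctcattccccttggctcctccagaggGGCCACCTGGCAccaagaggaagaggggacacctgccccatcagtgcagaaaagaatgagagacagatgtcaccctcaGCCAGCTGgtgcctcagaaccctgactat
Cryba4, peak 4943, chr5:112669901-112670060: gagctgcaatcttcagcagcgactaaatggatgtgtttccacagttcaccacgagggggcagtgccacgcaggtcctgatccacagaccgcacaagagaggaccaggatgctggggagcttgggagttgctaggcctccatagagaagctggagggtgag
The middle of the Miat peak held an E-box and a match to the alternative Nfi dimer, that of the Mn1 peak a single Nfi half-site, and those of the Pitpnb and Cryba4 peaks no match.

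The peaks were spread over the whole locus but not evenly. Before Pitpnb lay 7 peaks (4901 to 4907) in 160 kb, from the start of Pitpnb to the end of Mn1 2 peaks (4908 and 4909) in 126 kb, between the end of Mn1 and Miat 30 peaks (4910 to 4939) in 756 kb, and from Miat to the end of the window 4 peaks (4940 to 4943) in 57.8 kb. The density was 4.38 peaks per 100 kb before Pitpnb, 1.58 across Pitpnb and Mn1, 3.97 between Mn1 and Miat and 6.93 at Miat and Cryba4. Most of the peaks thus sat in the long interval between Mn1 and Miat, which holds no named protein-coding gene in the annotation used. Together the peaks covered 50.5 kb, 4.59% of the locus, where peaks covered 0.290% of the genome. The locus had 39.1 peaks per Mb and the genome 2.59.

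**Figure D1:**
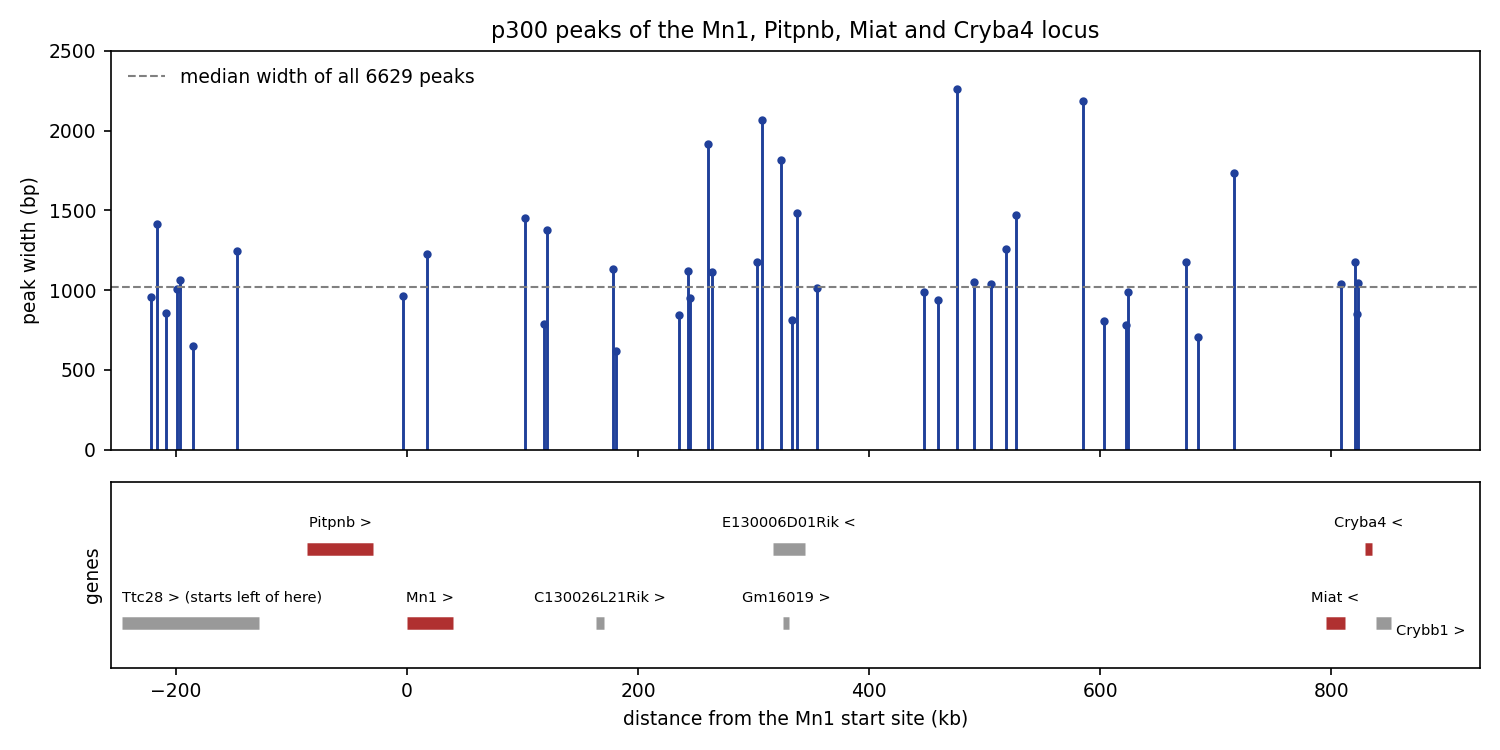
Position and width of the 43 p300 peaks. The horizontal axis gives the distance of the peak midpoint from the Mn1 start site in kb, the height of each line gives the peak width in bp, and the dashed line is the median width of all 6629 peaks. Genes are drawn below at their annotated extent, with the 4 genes of the locus in red, others in grey, and arrows for the strand. The empty span left of 0 contains the whole of Pitpnb.

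The first members lay well inside the window. Peak 4901 was the first, with its midpoint 24.8 kb inside the lower edge, and the next peak outside, 4900, lay 112 kb below that edge and 137 kb from peak 4901. On the other side peak 4943 was 30.0 kb inside the upper edge, and peak 4944 lay 214 kb above it and 244 kb from peak 4943. The peaks just outside were 1319 and 1410 bp wide and those just inside 953 and 1046 bp. Small shifts of the window edges would therefore not alter its members, and counting any peak with a base in the window gave the same 43.

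The midpoints of neighbouring peaks were a median of 13.5 kb apart (from 1.54 to 144 kb, 42 spacings), against 128 kb over all peaks. Spacings under 50 kb made up 34 of the 42. Edge to edge, 11 gaps were shorter than 5 kb, which is 26.2% of the gaps in the locus and 7.87% over all peaks. When such neighbours were joined, 32 units remained, of which 10 held more than 1 peak and together took up 21 of the 43 peaks.

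Peaks 4942 and 4943, between Miat and Cryba4, were the pair with the closest midpoints, 1.54 kb apart, and only 0.591 kb lay between their edges. Peak 4941 joined them from the other side across 0.792 kb, so that 3 peaks stood in a row upstream of Miat. The shortest edge to edge gap, 0.536 kb, separated peaks 4916 and 4917 in the interval between Mn1 and Miat. Peaks 4935 and 4936 were 0.921 kb apart, and the other 7 gaps under 5 kb were from 1.44 to 4.37 kb.

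The longest gap, 143 kb between peaks 4907 and 4908, contained the whole of Pitpnb. It had no unassembled bases, and 93.7% of its 36-base words occurred once in the assembly, so nearly all of it could be read with unique alignments of the study's read length. The next longest gaps were 91.5 kb between peaks 4925 and 4926, 90.6 kb between peaks 4939 and 4940, and 83.8 kb between peaks 4909 and 4910. Of these the gap before Miat had the lowest share of unique 36-base words, 88.4%. Outside the peaks the locus had 94.6% unique words and inside them 99.1%, after the authors had removed peaks suspected of non-unique mapping. Peaks 4906 (89.2%) and 4942 (90.6%) were the least unique members.

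**Figure D2:**
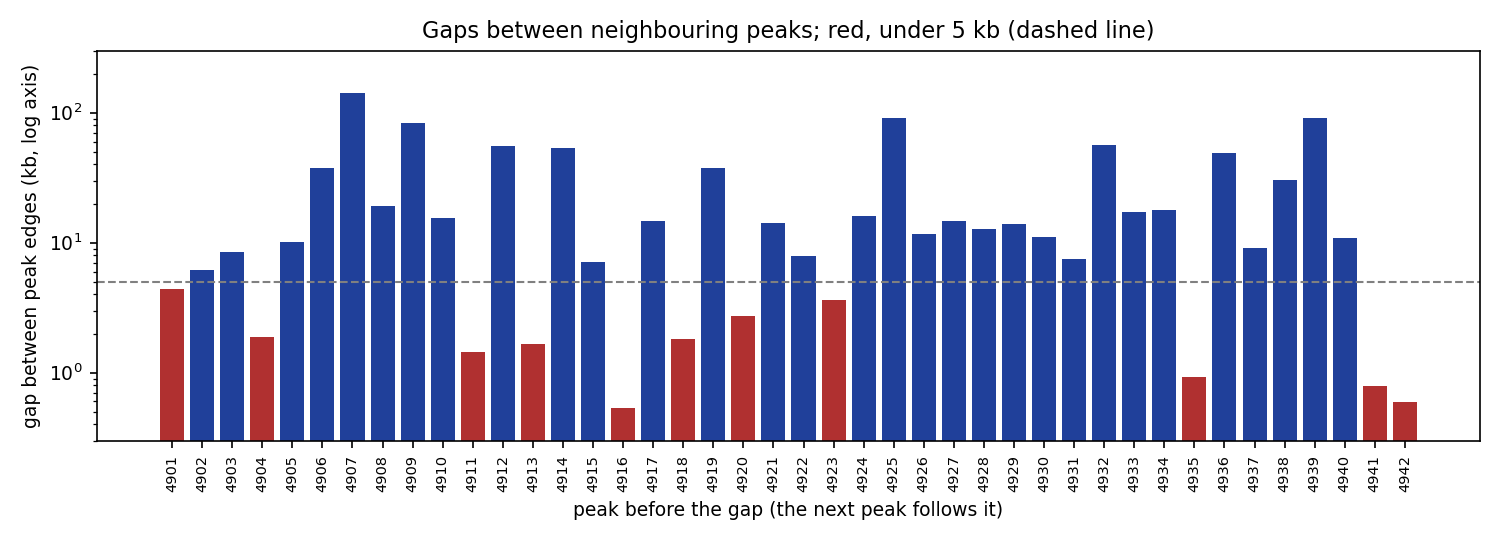
Length of each gap between the edges of neighbouring peaks, on a log axis in kb, in order along the chromosome, with each bar named by the peak before it. Red bars are the 11 gaps under 5 kb and the dashed line marks 5 kb. Gaps range from under 1 kb to over 100 kb, those after peaks 4926 to 4931 are between 7.52 and 14.8 kb, and the longest bar, at peak 4907, is the gap that holds Pitpnb.

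The locus peaks were about as wide as other p300 peaks. Their median width was 1048 bp (95% interval of the median from order statistics, 985 to 1175), against 1017 bp over all peaks, with 25 of the 43 members at or above that width, 11 wider than 75% of the list and 10 narrower than 75% of it. The intervals of medians, here and below, treat the peaks as independent draws, which neighbours in a single window are not. Width is the extent that the peak caller joined and is not a height. The widest were peak 4928 (chr5:112321664-112323922, 2259 bp), peak 4933 (chr5:112430379-112432564, 2186 bp) and peak 4921 (chr5:112153030-112155092, 2063 bp), all between Mn1 and Miat. Peak 4928 was wider than 97.7% of all peaks. The narrowest was peak 4914 (chr5:112026798-112027416, 619 bp), also between Mn1 and Miat. By part, the median width was 1004 bp before Pitpnb, 1094 bp across Pitpnb and Mn1, 1113 bp between Mn1 and Miat and 1042.5 bp at Miat and Cryba4. The 6 members wider than 90% of the list all lay between Mn1 and Miat.

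Relative to genes, 31 of the 43 peaks were intergenic and 12 lay in introns, and none touched an exon, since peaks at exons had been removed by the authors. Over the whole list 54.2% of peaks touched no annotated gene, and in the locus the share was 72.1%. The intronic members were 7 in Ttc28, 3 in E130006D01Rik, 1 in Mn1 and 1 in Miat. Ttc28 encodes a protein of tetratricopeptide repeats, is a lincRNA in GENCODE vM1 and protein-coding in RefSeq, and with 5 peaks outside the window it overlapped 12 in all. E130006D01Rik is a noncoding transcript in both annotations. Of 43 peaks only the 1 in Mn1 lay in a gene that GENCODE vM1 calls protein-coding, so the share outside genes depends on how the noncoding genes are counted.

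Mn1 (chr5:111846382-111886053, plus strand) had a p300 peak close to its start. Peak 4908 (chr5:111842854-111843816, 963 bp) lay 3.13 kb upstream of the Mn1 start site, just beyond the 2.5 kb around start sites within which the authors removed peaks, so closer binding could not appear in the list. Peak 4909 (chr5:111863040-111864264, 1225 bp) lay in the Mn1 intron, 17.2 kb past the start site, and was the only peak inside the gene. The third closest was peak 4910 at 102 kb. With the start sites of the 4 genes alone, 18 peaks were nearest to Mn1. Against the start sites of all annotated genes only 2 were, peaks 4908 and 4909, because 3 noncoding or model genes lie downstream.

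No peak lay in Pitpnb (chr5:111759783-111817379, plus strand). Of the 4 genes, Pitpnb was the nearest for the 7 peaks in the introns of Ttc28, and the closest of them, peak 4907 (chr5:111698836-111700082, 1247 bp), was 60.3 kb upstream. Beyond the end of Pitpnb the next peak was 4908, 83.6 kb from the Pitpnb start site and much closer to Mn1. Of the sequence of Pitpnb, 89.98% of 36-base words were unique, the lowest share among the genes in the window.

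Miat (chr5:112642248-112657968, minus strand) had peak 4940 (chr5:112654182-112655220, 1039 bp) in an intron, 3.27 kb past its start site. Upstream of Miat, peak 4941 lay at 8.67 kb, peak 4942 at 10.5 kb and peak 4943 at 12.01 kb from the start site. These 3 stood between the start sites of Miat and Cryba4, which run in the same direction. Of the 4 genes, Miat was nearest for 17 peaks, the farthest of them peak 4926 at 364 kb.

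Cryba4 (chr5:112675513-112681538, minus strand) had no peak inside it. Peak 4943 was the only one nearer to Cryba4 than to the other 3 genes, 11.6 kb from its start site on the downstream side. Its neighbour Crybb1, another lens crystallin, had its start site 14.9 kb from the same peak and no peak inside. Tpst2, which encodes an enzyme that adds sulphate to tyrosines of secreted proteins and is the first gene beyond the window, likewise had no peak, and its start site was 35.7 kb from peak 4943.

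Counts of peaks per gene depended on the rule that ties peaks to genes. Each gene was given a regulatory domain that reached 5 kb before and 1 kb past its start site and was extended to the next gene's basal domain or by up to 1 Mb. Among named protein-coding genes the domain of Mn1 held 36 peaks over 919 kb, that of Cryba4 35 peaks over 839 kb and that of Pitpnb 12 peaks over 568 kb, 7 of them in the locus. Those 7 lie in introns of Ttc28, which is protein-coding in RefSeq but not in GENCODE vM1 and so did not bound these domains. With genes of every kind as bounds Pitpnb had 9 peaks, 7 of them in the locus, and Ttc28 had 0. The domains of Mn1 and Cryba4 overlap across the whole interval between them, so all 35 peaks of Cryba4 were among the 36 of Mn1. When the noncoding genes also bounded the domains, Mn1 had 5 peaks and Cryba4 3, while Miat had 19 and E130006D01Rik 18. With all protein-coding genes as bounds Mn1 again had 5 peaks, and Cryba4 had 31, because C130026L21Rik, protein-coding in GENCODE vM1 and a long noncoding RNA in RefSeq, starts 164 kb past Mn1. The list cannot tell which of these genes a peak acts on.

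Genes related to those of the locus had from 0 to 5 peaks in their domains, which were shorter except for that of Rarb, and the counts of Pitpnb, Cryba4 and Miat come from a window chosen for its density. Of 6 phosphatidylinositol transfer protein genes 3 had at least 1 peak, Pitpnb with 12, Pitpnc1 with 2 and Pitpnm2 with 1, and Pitpna, Pitpnm1 and Pitpnm3 had 0. Of 8 beta- and gamma-crystallin genes 4 had a peak, Cryba4 with 35, Crybb3 with 2 and Crybb2 and Crygs with 1 each in domains of 59.6 and 191 kb, while Crybb1, next door to Cryba4, had 0 in a domain of 20.9 kb. Of the 6 retinoid receptor genes, whose products Mn1 can assist, 3 had a peak, Rxra with 4 and Rara and Rarb with 1 each. These counts stand beside a share of 23.6% over 18679 named protein-coding genes. Each family includes at most 1 of the 4 genes of the locus, and the crystallins also include Crybb1, which lies in the window. Among 6 nuclear long noncoding RNA genes, with domains bounded by genes of every kind, 4 had a peak, Miat with 19, Rmst with 5 and Malat1 and Neat1 with 1 each, and Meg3 and Sox2ot had 0, where 16.7% of all 37310 annotated genes had one.

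The locus peaks were rich in G and C. Their median GC content was 53.1% (95% interval of the median, 51.9 to 53.9), ranging from 47.8% in peak 4923 to 59.5% in peak 4941, and the lowest of the 43 was above the 45.2% median of all peaks. The sequence around them was rich as well, with 49.7% GC in the locus outside peaks. Within 5 kb on each side, 35 of 43 peaks had more GC than their surroundings, by a median of 2.41 percentage points, and 64.2% of the 514 peaks of chromosome 5 did. Peak 4941 stood out most, 10.2 points above its surroundings, and peak 4935 was 1.72 points below. The 34 peaks of the dense stretch at Gse1, the next densest 1 Mb of the genome, had a median GC content of 57.1%, and the 29 peaks of that at Auts2 45.0%, so dense stretches differed in composition among themselves. CpG dinucleotides were as depleted as in other peaks, with a median observed to expected ratio of 0.230 against 0.228.

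**Figure D3:**
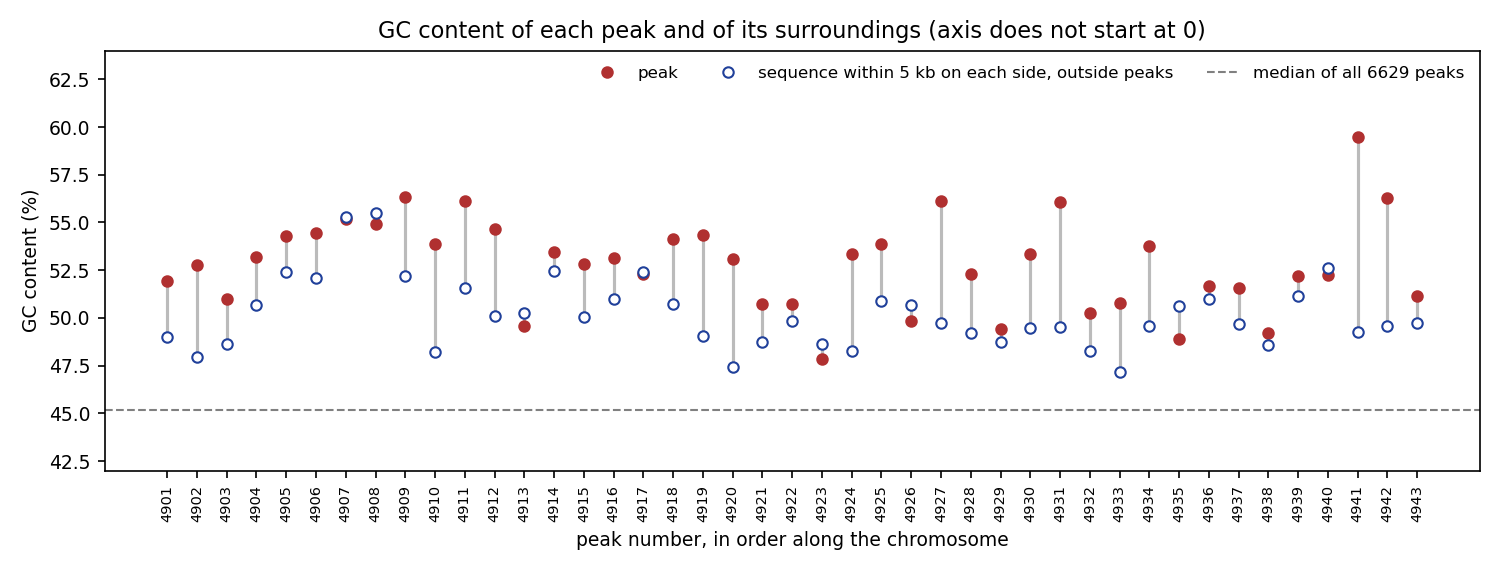
GC content in percent of each locus peak (filled red) and of the sequence within 5 kb on each side outside peaks (open blue), in order along the chromosome, with the median of all peaks as a dashed line. The red point is above its blue partner in 35 of 43 peaks, and both lie above the dashed line for all 43 peaks. The vertical axis does not start at 0.

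The peaks shared little sequence with each other. Of 903 pairs of locus peaks 12 shared an exact run of 20 bases or more on either strand, and the longest run, 55 bases between peaks 4920 and 4940, was a GA repeat. The next longest were CA repeats of 43 bases between peak 4908 and peaks 4932 and 4937.

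Both strands were searched for 10 short motifs. They are the consensus forms of 6 motifs shown by the study (Neurod/Neurog, Lhx/Lmx, an Nfi dimer, an alternative Nfi dimer, an Rfx dimer and a Hox dimer) and of 4 further ones (an Nfi half-site, a T-box half-site, the POU octamer and the Mef2 site). A match is a description of letters and not a bound site. Shares are of peaks with at least 1 match, with exact Clopper-Pearson 95% intervals that cover counting error only. The peaks are neighbours and not independent draws, and the intervals are not adjusted for the 10 motifs.

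Neurod and Neurog proteins are proneural factors of the cortex that bind E-boxes. The motif searched was CAGCTG or CATCTG preceded by C or T, with C or G before that. Throughout, E-box means a match to this motif. Other E-box sequences, and the same cores with other flanking bases, were not counted. The motif occurred in 31 of 43 locus peaks, or 72.1% (56.3 to 84.7), and in 55% of all peaks, a share just below the interval. In the middle 500 bp of each peak, where lengths are equal, it occurred in 22 of 43, or 51.2% (35.5 to 66.7), against 39.9% of all peaks, a share inside the interval. Outside peaks, 23.7% of 2053 windows of 500 bp in the locus held it, and 25.9% of 75783 such windows of chromosome 5 with GC content in the range of the locus peaks. The locus peaks were thus above the sequence around them in E-boxes, while their difference from other p300 peaks was seen at full length and was within the interval at equal length.

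CAGCTG reads the same on both strands, so 1 E-box can match the motif on each. Counted by core, the motif matches in the 43 peaks made up 58 distinct E-boxes, 33 with CAGCTG and 25 with CATCTG. That was 1.15 per kb against 0.761 per kb over all peaks. A high density was not particular to the locus, but not every dense stretch had it. Counting matches on each strand, there were 1.31 per kb here, 1.398 in the 34 peaks of the dense stretch at Gse1, of which 64.7% held the motif, and 0.819 in all peaks. The 29 peaks of the stretch at Auts2 had 0.690 per kb, and 62.1% of them held the motif. No E-box was found in 12 peaks, 1 in 16, 2 in 10, 3 in 3 (4920, 4927 and 4928) and 4 in 1 (4912). Peak 4931 had 9, a number equalled or passed in only 3 of the 6629 peaks, itself included. Without it the density was 0.995 per kb. The 7 peaks before Pitpnb held 7 E-boxes with 1 peak lacking any, the 30 peaks between Mn1 and Miat 43 with 11 peaks lacking any, and each of the 6 peaks near Mn1, Miat and Cryba4 held at least 1.

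Peak 4931 (chr5:112363913-112365168, 1256 bp) lay between Mn1 and Miat, 518 kb past the Mn1 start site, with 56.1% GC. Of its 9 E-boxes 6 had a CAGCTG core and 3 a CATCTG core. It also had 2 of the alternative Nfi dimer matches and 2 Nfi half-sites. A stretch of 300 bp near its middle is shown because it holds 5 of the E-boxes, the first and the fourth of which overlap an alternative Nfi dimer match. Capitals mark every match to the motifs searched.
Peak 4931, chr5:112364441-112364740: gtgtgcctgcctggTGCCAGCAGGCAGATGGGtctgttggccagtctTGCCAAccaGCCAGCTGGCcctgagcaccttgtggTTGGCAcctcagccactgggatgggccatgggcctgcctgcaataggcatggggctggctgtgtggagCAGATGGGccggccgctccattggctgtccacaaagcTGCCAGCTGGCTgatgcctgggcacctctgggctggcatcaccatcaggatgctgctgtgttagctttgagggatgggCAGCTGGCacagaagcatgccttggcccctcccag
The run TGCCAGCTGGCT counted both as an E-box and as an alternative Nfi dimer, since the palindromic core serves either pattern.

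The middle of the widest peak, 4928, carried an E-box that overlapped an Nfi half-site and stood beside a T-box half-site, the sequence bound by factors such as Tbr1 and Eomes. It is shown with the same marking.
Peak 4928, chr5:112322714-112322873: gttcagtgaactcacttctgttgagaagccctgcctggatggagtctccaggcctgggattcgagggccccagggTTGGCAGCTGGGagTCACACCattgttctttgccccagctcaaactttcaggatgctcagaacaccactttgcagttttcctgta

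LIM homeodomain factors such as Lhx2, which acts in cortical progenitors, bind TAATT cores. The motif searched was TAATT preceded by C or T and followed by A or G at each of the next 2 bases. It was found once in each of 8 peaks, 18.6% (8.39 to 33.4), against 38% of all peaks, a share above the interval. In the middle 500 bp it was found in 7 of 43, 16.3% (6.81 to 30.7), against 26.4% of all peaks, a share inside the interval. The same motif was in 7.60% of locus windows outside peaks, 11.8% of all windows of chromosome 5 and 6.58% of those with GC content in the range of the locus peaks. Over the full length the motif was rarer here than in p300 peaks at large. It was similarly rare in the 34 peaks of the GC-rich dense stretch at Gse1, 20.6% at full length and 8.82% in the middle 500 bp. A low share is thus not particular to the locus. The 29 peaks of the dense stretch at Auts2 did not share it, with 41.4% at full length and 24.1% in the middle 500 bp. The share in GC-rich sequence of the chromosome was lower than in the chromosome as a whole. The part of base composition in the difference between peaks was not tested.

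The 8 Lhx/Lmx matches lay near the centre of their peaks. A median of 43 bp separated them from the midpoint, and 7 of 8 were within 125 bp, where 38.2% of the 3724 matches in all peaks were and the median distance was 187 bp. The nearest to its midpoint was that of peak 4936, at 14.5 bp, and the only one beyond 125 bp was that of peak 4922, at 293.5 bp. The 8 sites are printed with 16 bases on each side, plus strand, match in capitals, so that their flanks can be compared. They were picked for printing after their positions had been seen.
Peak 4901, chr5:111624858-111624897: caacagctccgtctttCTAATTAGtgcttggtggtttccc
Peak 4912, chr5:111967898-111967937: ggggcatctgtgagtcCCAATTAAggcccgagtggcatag
Peak 4922, chr5:112170470-112170509: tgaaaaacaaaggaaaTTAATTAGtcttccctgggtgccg
Peak 4924, chr5:112184234-112184273: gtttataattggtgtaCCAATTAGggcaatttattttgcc
Peak 4925, chr5:112201327-112201366: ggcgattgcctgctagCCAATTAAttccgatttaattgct
Peak 4932, chr5:112373424-112373463: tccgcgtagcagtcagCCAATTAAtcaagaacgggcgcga
Peak 4933, chr5:112431499-112431538: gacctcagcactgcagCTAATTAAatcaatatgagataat
Peak 4936, chr5:112470597-112470636: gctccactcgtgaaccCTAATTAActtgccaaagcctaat
The run CCAATTAA occurred in peaks 4912, 4925 and 4932, and the bases on either side of it differed between them. Of the 8 peaks 7 lay between Mn1 and Miat and 1, peak 4901, in an intron of Ttc28. An E-box occurred in 6 of the 8, all but peaks 4925 and 4936, so that both motifs were in 14.0% of locus peaks against 19.7% of all peaks.

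The POU octamer ATGCAAAT, bound by factors such as Pou3f2 and Pou3f3 in cortical progenitors and upper layer neurons, was found in 10 of 43 peaks, 23.3% (11.8 to 38.6), against 12.9% of all peaks. In the middle 500 bp it was found in 8 of 43, 18.6% (8.39 to 33.4), against 7.60% of all peaks, 1.85% of locus windows outside peaks, 4.13% of all windows of chromosome 5 and 1.69% of those with GC content in the range of the locus peaks. At equal length the interval lay above the share of all peaks, while at full length it included it. The full-length share was 2.94% of the 34 peaks of the dense stretch at Gse1 and 10.3% of the 29 at Auts2. All 10 locus peaks with an octamer lay between Mn1 and Miat, where there were 30 peaks, and none of the 13 peaks elsewhere in the locus held one. At the 12.9% of all peaks few of 13 would hold an octamer, and this split was not tested. Both an octamer and an Lhx/Lmx match occurred in 4 peaks (4922, 4924, 4933 and 4936), 9.30% of the locus against 5.93% of all peaks, a combination looked at after the values were seen. In peak 4936 the octamer was 32.5 bp before and the Lhx/Lmx match 14.5 bp after the midpoint.

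Peak 4910 (chr5:111948082-111949532, 1451 bp), the first after Mn1, was the only member with a pair of octamers. They stood on opposite strands with 13 bases between them, 148.5 and 127.5 bp before the midpoint, and are shown in capitals.
Peak 4910, chr5:111948639-111948699: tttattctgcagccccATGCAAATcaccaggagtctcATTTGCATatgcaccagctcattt

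Nuclear factor I proteins, which act in cortical progenitors and in glia, bind the dimer TGGC and GCCA separated by 5 bases. It was found once, in peak 4911, against 6.68% of all peaks. The alternative dimer, TGCCA and TGGCA separated by 2 bases with 1 mismatch allowed, was found in 7 peaks, 16.3% (6.81 to 30.7), against 10.4% of all peaks, and of its 8 matches 6 lay within 125 bp of the midpoint, where 45.1% of those in all peaks did. The half-site TTGGCA, which overlaps part of these dimers, was found in 24 of 43 peaks, 55.8% (39.9 to 70.9), against 60.7% of all peaks. None of the 3 Nfi shares was separated from that of all peaks by its counting interval. The Rfx dimer, bound by factors of ciliated and neural cells, was found once, in peak 4918, against 3.74% of all peaks, and the Hox dimer once, in peak 4916, against 12.5%. The interval of a single peak in 43, 0.0589 to 12.3%, includes the first share and ends just below the second. In the middle 500 bp the Hox dimer was in 0 of 43 peaks (0 to 8.22%), an interval that includes the 6.28% of all peaks. At full length the Hox dimer was in 2.94% of the 34 peaks at Gse1 and 6.90% of the 29 at Auts2, so a low share is not particular to the locus.

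The dimer matches are printed with 15 bases on each side, plus strand, match in capitals, except those of peak 4931, which are in the stretch above.
Nfi dimer, peak 4911, chr5:111965276-111965318: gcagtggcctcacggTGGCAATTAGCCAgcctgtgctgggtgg
Hox dimer, peak 4916, chr5:112090015-112090058: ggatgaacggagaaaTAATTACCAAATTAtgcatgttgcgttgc
Rfx dimer, peak 4918, chr5:112107190-112107233: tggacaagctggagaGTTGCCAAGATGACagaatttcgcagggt
Alternative Nfi dimer, peak 4901, chr5:111624687-111624728: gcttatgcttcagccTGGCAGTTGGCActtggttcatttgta
Alternative Nfi dimer, peak 4925, chr5:112201783-112201824: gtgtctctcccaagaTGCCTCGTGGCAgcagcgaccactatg
Alternative Nfi dimer, peak 4929, chr5:112337290-112337331: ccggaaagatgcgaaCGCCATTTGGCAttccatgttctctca
Alternative Nfi dimer, peak 4934, chr5:112450216-112450257: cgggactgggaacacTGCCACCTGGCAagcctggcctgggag
Alternative Nfi dimer, peak 4935, chr5:112469001-112469042: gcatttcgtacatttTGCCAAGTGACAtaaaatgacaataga
Alternative Nfi dimer, peak 4940, chr5:112654660-112654701: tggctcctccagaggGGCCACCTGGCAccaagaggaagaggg
Of these only peak 4934 held the alternative dimer without a mismatch.

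T-box half-sites, GGTGTGA, were found in 8 of 43 peaks, 18.6% (8.39 to 33.4), close to the 16.5% of all peaks, and in the middle 500 bp in 4 of 43 against 9.49%. Peaks 4918 and 4928 had 2 each. The Mef2 site, CTA and TAG around 4 bases of A or T, was found in 4 peaks (4909, 4921, 4926 and 4937), 9.30% (2.59 to 22.1), against 2.91% of all peaks, an interval that includes the background. Mef2 factors act in maturing neurons.

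**Figure D4:**
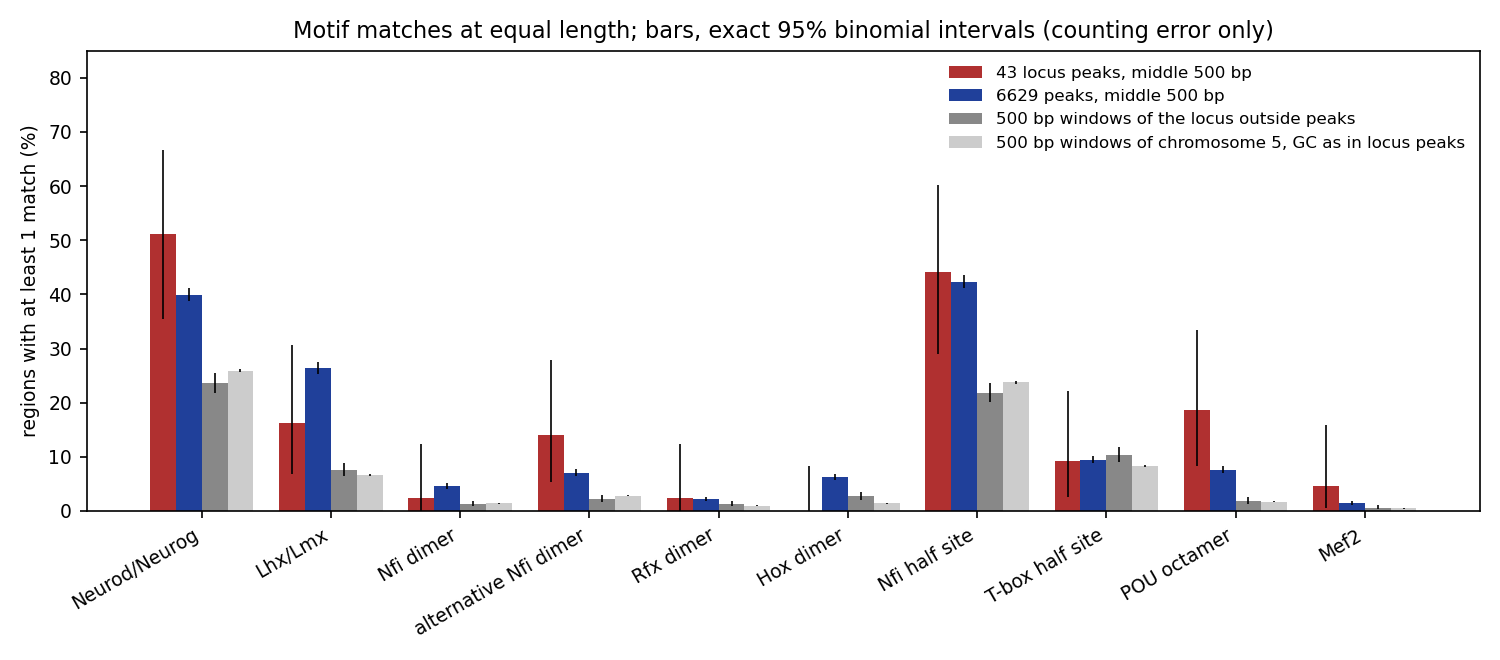
Share of regions with at least 1 match to each motif, in percent, for the middle 500 bp of the 43 locus peaks (red), the middle 500 bp of all 6629 peaks (blue), 500 bp windows of the locus outside peaks (dark grey) and 500 bp windows of chromosome 5 with GC content in the range of the locus peaks (light grey). Thin lines are exact 95% binomial intervals. The locus bar is above both grey bars by more than its interval for Neurod/Neurog, the alternative Nfi dimer, the Nfi half-site and the POU octamer, and above all peaks by more than its interval for the POU octamer.

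None of the 6 motifs shown by the study was found in 7 peaks, 16.3%, against 20% of all peaks. They were 4904, 4915, 4923, 4926, 4937, 4938 and 4939, and 3 of them (4904, 4938 and 4939) had none of the 10 motifs, as did 6.7% of all peaks. Peaks 4937, 4938 and 4939 were consecutive, and peak 4939 was among the wide ones at 1735 bp. At the other extreme stood peak 4931 with 14 matches to the 6 motifs, followed by peak 4912 with 5 and peak 4933 with 4, where the median was 2 both in the locus and over all peaks.

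**Figure D5:**
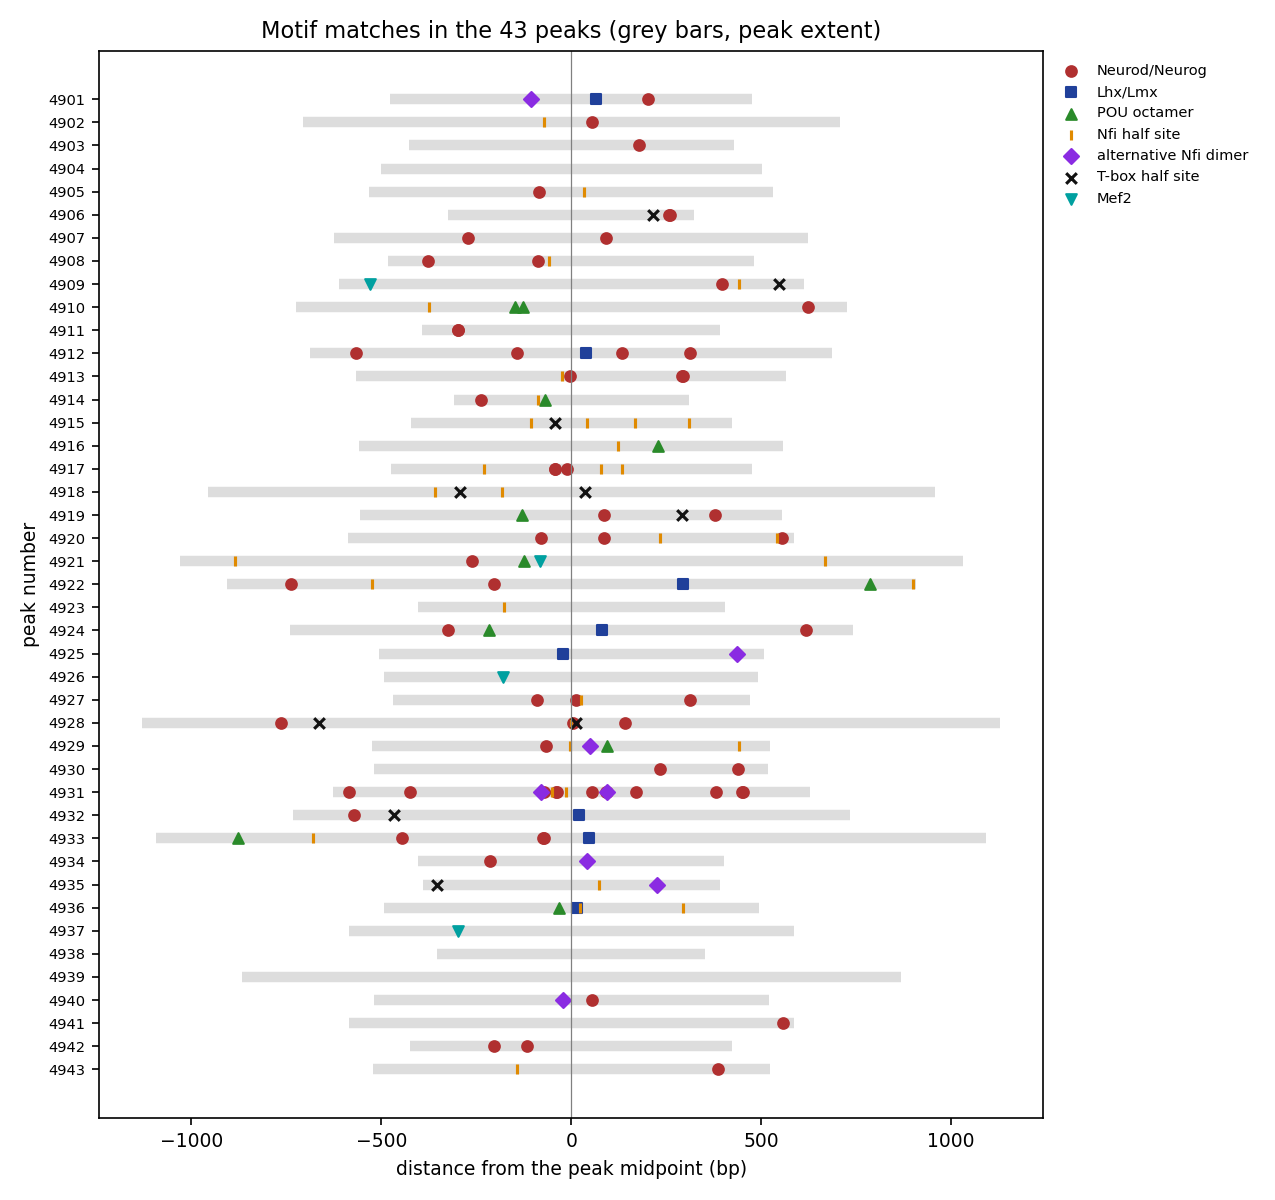
Position of motif matches in each of the 43 peaks, with the distance from the peak midpoint in bp on the horizontal axis, 1 row for each peak and grey bars for the extent of the peak. Lhx/Lmx matches (squares) cluster at the midpoint, POU octamers (triangles) occur only in peaks 4910 to 4936, and peak 4931 has the densest row of Neurod/Neurog matches (circles). The single Nfi, Rfx and Hox dimer matches are not drawn.

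The peaks can be followed from one end of the locus to the other. In the introns of Ttc28, peaks 4901 (953 bp), 4902 (1413 bp) and 4903 (857 bp) each held 1 E-box, and peak 4901 added the Lhx/Lmx match and the alternative Nfi dimer shown above. Peak 4904 (1004 bp) had no match and peak 4905 (1063 bp), 1.896 kb after it, had 1 CATCTG E-box. Peak 4906 (648 bp), the second narrowest member, had 1 E-box with a CAGCTG core 41.5 bp from a T-box half-site. Peak 4907, nearest to Pitpnb, had 2 E-boxes, 1 of each core. This group of 7 peaks was spread over 74.6 kb of a single gene. An E-box was in 6 of the 7 and an Nfi half-site in 3, where 55% and 60.7% of all peaks held them.

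Around Mn1, peak 4908 upstream of the start site had 2 CATCTG E-boxes, 376.5 and 86.5 bp before its midpoint, and an Nfi half-site. Peak 4909 in the intron had 1 CATCTG E-box, an Nfi half-site, a T-box half-site and a Mef2 site. Both had high GC content for p300 peaks, 54.9% and 56.3%. The sequence around peak 4908 was as rich, at 55.5%, and that around peak 4909 less so, at 52.2%.

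Past Mn1, peaks 4911 (786 bp) and 4912 (1374 bp) formed a pair 1.44 kb apart and 119 to 121 kb from the Mn1 start site. Peak 4911 held the Nfi dimer and 1 E-box, and peak 4912 held 4 E-boxes, a number that 114 of the 6629 peaks reached, and an Lhx/Lmx match 39.5 bp from its midpoint. Peaks 4913 (1131 bp) and 4914 (619 bp) formed the next pair, 1.65 kb apart, just past the short gene C130026L21Rik, with 2 E-boxes in the first and 1 E-box and an octamer in the second. The E-box at the midpoint of peak 4913 was 3.5 bp from it.

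Further on, peak 4915 (846 bp) had 4 Nfi half-sites, more than any other member, and no E-box. Peak 4916 (1116 bp) had the Hox dimer and an octamer and its close neighbour 4917 (950 bp) 2 CAGCTG E-boxes and 3 Nfi half-sites. Peak 4918 (1914 bp) had the Rfx dimer and no E-box, and peak 4919 (1110 bp), 1.83 kb on, 2 E-boxes and an octamer. The pair of peaks 4920 (1175 bp) and 4921 (2063 bp) followed, with 3 E-boxes in the first and, in the second, an E-box, an octamer and a Mef2 site, the last pair 40 bp apart. The close neighbours named here thus carried different sets of matches.

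In and beside E130006D01Rik, peak 4922 (1814 bp) lay 1.67 kb from the start site of the small noncoding gene Gm16019 and had 2 E-boxes, an Lhx/Lmx match and an octamer. Peak 4923 (809 bp) had a single Nfi half-site and the lowest GC content of the locus, and peak 4924 (1482 bp) had 2 CATCTG E-boxes with an Lhx/Lmx match and an octamer. Peak 4925 (1013 bp), upstream of the gene, had an Lhx/Lmx match 21.5 bp from its midpoint and an alternative Nfi dimer.

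After the 91.5 kb gap came 7 peaks, 4926 to 4932, spaced 8.88 to 16.4 kb apart in a row with no annotated gene. They held 0, 3, 3, 1, 2, 9 and 1 E-boxes in that order, so that only the first lacked one. Peak 4927 (939 bp) had 3 with CATCTG cores alone, peak 4929 (1048 bp) an alternative Nfi dimer and an octamer 45 bp apart, and peak 4932 (1468 bp) an Lhx/Lmx match 20.5 bp from its midpoint. Peak 4933 followed after 56.2 kb with 2 CAGCTG E-boxes, an Lhx/Lmx match and an octamer.

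The last peaks before Miat had few E-boxes. Peak 4934 (807 bp) held 1 E-box and an alternative Nfi dimer. Peak 4935 (781 bp) held an alternative Nfi dimer, a T-box half-site and 2 Nfi half-sites, without an E-box. Peak 4936 (987 bp) held an Lhx/Lmx match, an octamer and 2 Nfi half-sites, and no E-box. Peaks 4937 (1173 bp), 4938 (705 bp) and 4939 (1735 bp) had no E-box either. The E-box motif searched thus had no match in 5 consecutive peaks over 93.9 kb. At Miat matches returned, with 1 CAGCTG E-box in each of peaks 4940 and 4941 (1173 bp). Peak 4942 (849 bp) had 1 of each core and peak 4943 had 1 with a CATCTG core. Peak 4941, with the highest GC content of the locus at 59.5%, had its E-box 556.5 bp from the midpoint, near the edge of the peak.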

How the data were processed

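The authors aligned 36 bp reads to mm9 with ELAND (unique, up to 2 mismatches). They called peaks against the input with MACS 1.4 per the labels. Only distal calls were kept: those touching an exon, under 2.5 kb from a start site or of doubtful mapping were excluded. Exons and start sites for this filter came from the UCSC knownGene annotation, not from GENCODE vM1. By the GENCODE vM1 start sites, the midpoint of peak 4922 lay 1.67 kb from the start of Gm16019. The deposited list gives chromosome, start, end and number per peak, with no score or count; the input was not analysed here. With 1 library there is no replicate, so no test was run, and the 43 members are set beside all 6629 peaks, the 514 peaks of chromosome 5, the peaks of the dense stretches at Gse1 and Auts2, or windows of equal length, with or without a limit on GC content. The members, motifs and gene lists were chosen with earlier results of these data known.

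Sequence came from NCBIM37, the mm9 assembly, genes from GENCODE vM1, and biotypes also from RefSeq. Each gene had 1 start site, that of its main transcript. Motif consensus forms were matched exactly unless a mismatch is stated; the position weight matrices, conservation and GREAT's curated domains were not used here. Windows of 500 bp tiled chromosome 5 outside peaks. Those limited by GC content lay between the lowest and highest of the locus peak middles, 47 and 64.4%. Their distribution within that range was not matched to the peaks. Shares carry exact Clopper-Pearson 95% intervals. Peaks were singled out by rule (the 3 widest, the narrowest, those nearest each gene, the closest pair, the longest gap, the window edges, the most matches, every dimer match); the Lhx/Lmx and octamer sequences were picked after their values were seen. Alternatives are given below. Python 3.11.15 with numpy 2.4.6, scipy 1.17.1, numba 0.67.0 and matplotlib 3.10.9 was used. Tested on simulated data, the search found 200 of 200 planted sites for each motif, and 400 of 400 domains matched a direct calculation.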

Additional observations from a re-analysis of the deposited data

How the results depend on the processing

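No paired analysis was possible because each group has 1 library and no test was run. The count of 43 peaks was unchanged with any base in the window and became 32 with neighbours under 5 kb joined and 25 when narrower peaks than the median were left out. Joining raised the median width to 1353.5 bp and the median spacing to 18.4 kb, and the wide peaks alone had a median spacing of 19.3 kb. The median GC content was 54.2% in the middle 500 bp. Peaks with the Nfi dimer rose from 1 to 30 when 1 mismatch was allowed, which turned the order round: 2.33% of locus peaks against 6.68% of all peaks with exact matching, and 69.8% against 50.2% with the mismatch. The regulatory domain of Mn1 went from 36 peaks to 5 between all annotated genes, 5 between all protein-coding genes and 22 with an extension of up to 500 kb. That of Cryba4 went from 35 to 3 between all annotated genes and 20 with the shorter extension, and kept 31 between all protein-coding genes. The domain of Pitpnb held 9 to 12 peaks throughout. Taking a count as moved beyond 1.5 times and a median as moved outside its 95% interval, 12 of 24 alternatives moved a value. Those intervals treat neighbouring peaks as independent draws. The E-box density without peak 4931 was chosen after seeing the data. The depth behind a peak is unknown, and whether close neighbours are single broad regions was not tested. Absence of a peak is absence from a filtered list.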
